A study of Mus musculus with 21 samples.

Results

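The genes of the mitochondrial respiratory chain and ATP synthase are described here in C2C12 cells, an established mouse myoblast line, before and after differentiation and after knockdown (KD) of 4 nuclear envelope transmembrane proteins (NETs). All genes whose annotated symbol begins with Nduf, Sdh, Uqcr, Cox4, Cox5, Cox6, Cox7, Cox8 or Atp5 were taken, which gave 91 of the 19057 genes that had a probe with a single gene symbol. The rule read only the symbols and used no measured value. The 91 genes comprised 36 named as complex I subunits, 8 complex I assembly factors, 4 complex II subunits, 4 complex II assembly factors, 7 complex III subunits, 16 complex IV subunits and 16 ATP synthase subunits. They were covered by 142 probes, and the brightest probe by mean over the 21 arrays stood for each gene.

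Oxidative phosphorylation passes electrons from NADH through complex I, or from succinate through complex II, to ubiquinone, then through complex III and cytochrome c to complex IV (cytochrome c oxidase), which reduces oxygen. Complexes I, III and IV pump protons across the inner mitochondrial membrane, and ATP synthase uses the gradient to make ATP. Nearly all of these subunits are encoded in the nucleus, and some complex IV subunits exist as a broadly expressed isoform and as a second isoform found mainly in heart and skeletal muscle.

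The groups were myotubes (MTs) carrying an shRNA against NET39 (gene Plpp7), TMEM38A, WFS1 or TMEM214, MTs carrying a control shRNA, untransduced MTs, and untransduced, proliferating myoblasts (MBs), with 3 arrays in each of the 7 groups. MTs were collected at day 6 of differentiation and MBs at day 0. All shRNA cells were stable lines made by lentiviral transduction and puromycin selection, so the control shRNA MTs share both steps with the KD MTs, whereas untransduced cells had neither. The labels call the control non-target, whereas an empty vector is named for these arrays in the header of the scanner values and for control MTs in legends of the paper, and which of them the KD ratios are set against is not settled. Per the protocol, contraction of MTs was blocked with tetrodotoxin and MTs were freed from remaining mononuclear cells by brief trypsin treatment. Values are log2 intensities from Illumina mouse beadchips, quantile-normalized over the series. In bulk RNA, a change per cell cannot be told apart from a change in the share of cells of 1 type.

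Each targeted gene was lower in its own line than in control shRNA MTs: by log2 ratio, Plpp7 was at -1.44, Tmem38a at -3.86, Wfs1 at -3.54 and Tmem214 at -0.94. In TMEM214 MTs the genes Plpp7 (-0.96), Wfs1 (-1.03) and Tmem38a (-0.57) were also called lower, and in TMEM38A MTs Wfs1 was (-0.70). In untransduced MTs against MBs, 9 of 9 measured myotube markers were higher and 7 of 8 markers of dividing myoblasts were lower. Of 5 tested fibroblast markers, Dcn (2.25) and Col3a1 (1.19) were higher (summed level of the list 1770 to 1930 in MTs and 842 to 1250 in MBs), and their part in the results below was not tested. Mean scanner intensity was 301 to 533 on shRNA arrays and 172 to 289 on untransduced arrays, so array brightness and transduction cannot be told apart. MB replicate 1 stood apart: 411 of the 13548 genes above background (3.03%) differed on it by over 1 log2 unit from the mean of the other 2 MB arrays, against 15 to 73 genes on the other untransduced arrays and at most 17 on any shRNA array. Among the genes described here, 10 of 84 (11.9%) did so on MB replicate 1.

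A gene was tested when its probe exceeded the array's background level on at least 3 arrays. Of the 91 genes, 84 were tested. The other 7 were Cox4i2, Cox6b2, Cox7b2, Cox8c, Ndufaf6, Ndufs1 and Sdha, whose probes exceeded background on 0 or 1 of 21 arrays. Cox6b2, Cox7b2 and Cox8c are isoforms known from testis, while Ndufs1 (an iron-sulfur core subunit of complex I) and Sdha (the flavoprotein of complex II) are needed by every respiring cell, and their probes reached at most 6.59 and 6.62 on any array. Uqcrfs1, the Rieske iron-sulfur protein of complex III, was tested but reached at most 6.77. Nothing can be said here of the levels of Ndufs1, Sdha or Uqcrfs1. A gene is called when the adjusted p (Benjamini-Hochberg over the 13548 genes tested) was under 0.05 and the log2 ratio was beyond 0.5 in limma's moderated test.

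The first comparison asks which chain genes change in myogenesis. In untransduced MTs against MBs, 22 of the 84 genes rose and 2 fell. Over all genes tested, 11.7% rose and 13.2% fell. The median log2 ratio was 0.24 over the 84 genes and -0.01 over all genes, and 61 of the 84 had a positive ratio. The rises included the 3 muscle isoform genes of complex IV, Cox6a2, Cox8b and Cox7a1. None of their MT values overlapped those of MBs, which held for 28 of the 84 genes and 41.1% of all genes tested.

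Cox6a2, the heart and muscle form of subunit VIa, had log2 intensities of 12.56, 12.60 and 11.82 in untransduced MTs, against 6.64, 6.52 and 6.49 in MBs. The probe exceeded background on 1 of the 3 MB arrays. The log2 ratio was 5.77 ± 0.14 (SE; 54.7-fold, limma adjusted p = 1.18e-15), the highest of the 84, and its size depends on MB values at or near background. Cox8b, the muscle form of subunit VIII, had 11.39, 10.62 and 9.59 in MTs and 6.43, 6.74 and 6.64 in MBs, where 2 of 3 arrays exceeded background. Its log2 ratio was 3.93 ± 0.28 (limma adjusted p = 2.27e-09), although MT replicate 3 lay clearly below the other 2. Cox7a1, the muscle form of subunit VIIa, had 9.32, 8.90 and 7.72 in MTs and 6.75, 7.01 and 7.07 in MBs, with a log2 ratio of 1.70 ± 0.26 (limma adjusted p = 2.81e-05). Again MT replicate 3 was the lowest.

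The broadly expressed partner of Cox6a2 moved the other way. Cox6a1 had 12.12, 11.73 and 11.36 in MTs, against 12.13, 12.60 and 12.58 in MBs, a log2 ratio of -0.70 ± 0.17 (limma adjusted p = 0.003). A second probe of the gene gave -0.69 (limma adjusted p = 0.00627 over all kept probes). Within arrays, Cox6a2 minus Cox6a1 shifted by 6.47 log2 units between MTs and MBs, with no overlap of the 3 arrays each (exact two-sided permutation p = 0.10, the smallest that 3 against 3 can give), and the size of that shift too rests on MB values of Cox6a2 at or near background. Cox7a1 minus Cox7a2 shifted by 1.22 (same exact test, p = 0.10), although Cox7a2, the broadly expressed form of subunit VIIa, was itself uneven in MBs, at 8.70, 7.66 and 7.53. Its MT values were 8.90, 8.34 and 8.09. For the ATP synthase c-ring genes Atp5g3 and Atp5g2 the shift was -0.17 (exact permutation p = 0.70). Offsets between probes of different genes carry no level information, so only the shifts are given. Cox8a and Atp5g1 were not analysed here.

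**Figure D1:**
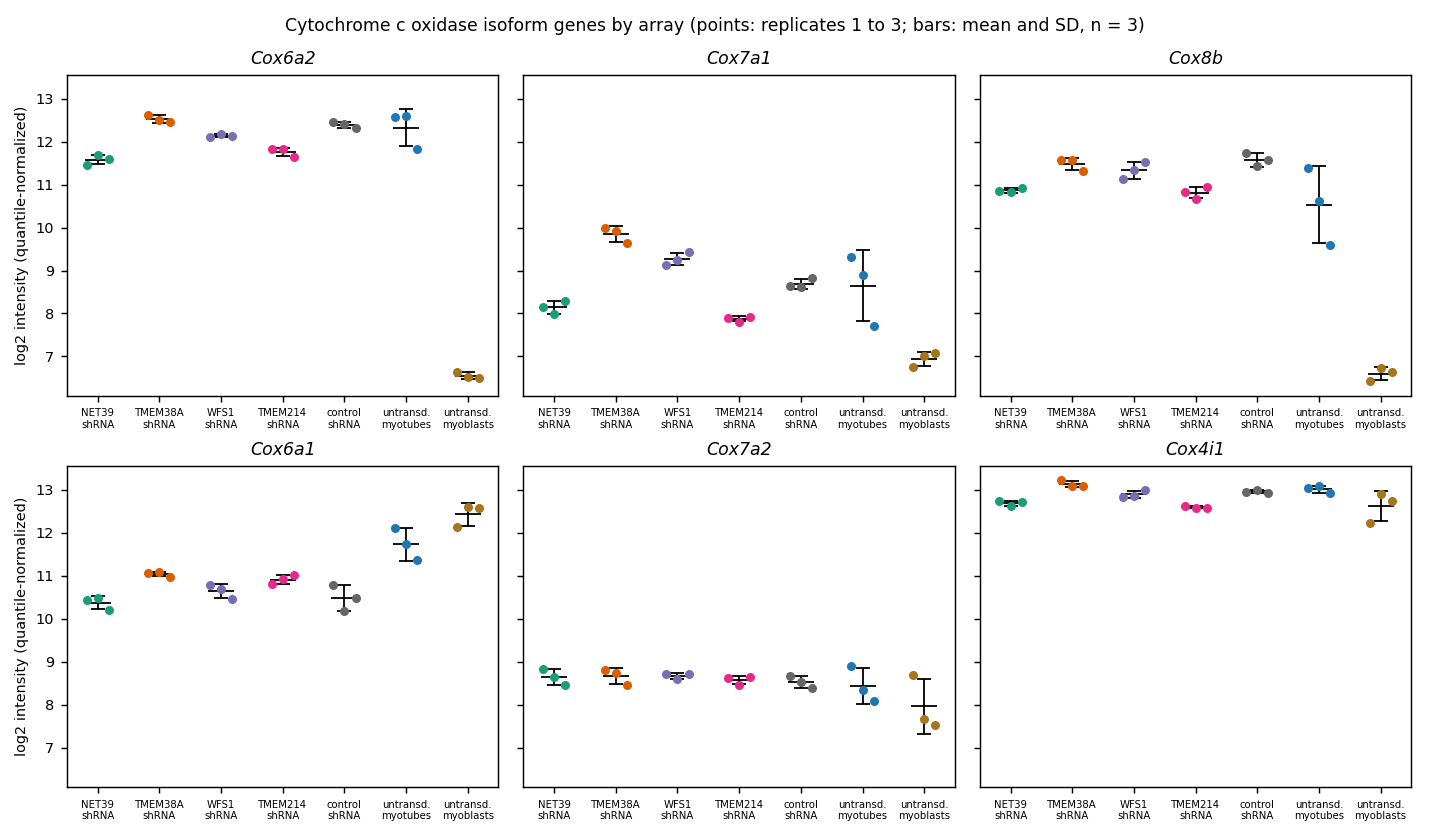
Log2 intensity of 6 complex IV genes (y axis) on each of the 3 arrays of the 7 groups (x axis; points are replicates 1 to 3 from left to right, bars are mean and SD, n = 3). The muscle isoforms in the upper row are higher on every myotube array than on any myoblast array, Cox6a1 is lower in all shRNA groups than in untransduced cells on this scale (under median scaling the ratio of control shRNA to untransduced myotubes was 0.10), and Cox7a1 is the gene that most separates the 4 knockdowns.

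Promoters of the muscle isoforms Cox8b and Cox7a1 and of the broadly expressed Cox6a1 and Cox7a2 are shown because these genes take part in the isoform contrast in differentiation. Each window holds 300 bases around the annotated start, from RefSeq on GRCm38.p6: Cox8b at chr7:140900397-140900696 (minus strand), Cox7a1 at chr7:30183921-30184220 (plus strand), Cox6a1 at chr5:115348909-115349208 (minus strand) and Cox7a2 at chr9:79759804-79760103 (minus strand). Capitals mark, on either strand, the E-box CANNTG, read by the MyoD family of muscle factors among others, the NRF1 core GCGCATG and the ETS core CCGGAAG.
Cox8b: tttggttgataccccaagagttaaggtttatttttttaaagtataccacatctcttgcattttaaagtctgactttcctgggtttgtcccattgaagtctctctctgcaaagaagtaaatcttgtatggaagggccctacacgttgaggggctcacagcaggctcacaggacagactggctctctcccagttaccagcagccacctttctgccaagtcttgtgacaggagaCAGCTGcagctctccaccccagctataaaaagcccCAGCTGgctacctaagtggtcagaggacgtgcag
Cox7a1: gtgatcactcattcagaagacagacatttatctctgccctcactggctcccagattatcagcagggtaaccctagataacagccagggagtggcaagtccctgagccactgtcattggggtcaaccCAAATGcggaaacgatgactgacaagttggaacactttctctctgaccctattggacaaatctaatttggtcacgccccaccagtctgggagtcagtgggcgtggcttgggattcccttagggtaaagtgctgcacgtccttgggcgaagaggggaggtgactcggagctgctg
Cox6a1: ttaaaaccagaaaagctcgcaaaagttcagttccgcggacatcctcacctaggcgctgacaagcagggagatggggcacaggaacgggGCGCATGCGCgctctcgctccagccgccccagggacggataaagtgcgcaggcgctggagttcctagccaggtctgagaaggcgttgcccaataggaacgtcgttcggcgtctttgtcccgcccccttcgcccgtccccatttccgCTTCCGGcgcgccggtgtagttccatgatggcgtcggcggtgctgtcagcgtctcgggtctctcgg
Cox7a2: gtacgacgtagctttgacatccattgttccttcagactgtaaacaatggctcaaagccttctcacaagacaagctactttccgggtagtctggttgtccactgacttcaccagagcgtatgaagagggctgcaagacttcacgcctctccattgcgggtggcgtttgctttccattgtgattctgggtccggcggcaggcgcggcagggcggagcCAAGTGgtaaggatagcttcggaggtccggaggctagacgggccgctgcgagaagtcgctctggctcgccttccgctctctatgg

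The Cox8b window held 2 E-boxes, both CAGCTG, and the Cox7a1 and Cox7a2 windows held 1 each. The Cox6a1 window held no E-box, 2 overlapping matches of the NRF1 core on opposite strands and 1 ETS core. An E-box was found in 72.1% of 27025 promoter windows of the same length and in 52 of the 76 windows matched to the 91 genes (68.4%). The NRF1 core was found in 15 of the 76 windows (19.7%), against 4.04% of all windows, and the ETS core in 20 (26.3%), against 9.12%. The ERR half-site AAGGTCA was found in 7 (9.21%), against 4.66%. The MEF2 motif was found in 0 of the 76, against 3.26% of all windows. These are matches of letters and not measured binding, and the windows compared were not matched for GC content. Cox6a2 was not among the 76 windows.

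Outside the muscle isoforms, the myogenesis rises fell unevenly on the complexes. Of the 35 complex I genes tested, 10 rose. The largest ratio was that of Ndufb9, an accessory subunit, with 11.11, 10.43 and 10.33 in MTs, against 9.73, 8.01 and 7.80 in MBs (log2 2.11 ± 0.35, limma adjusted p = 7.27e-05). The accessory subunits Ndufb5 (1.41), Ndufb4 (1.28), Ndufb2 (1.19), Ndufb10 (0.91), Ndufa6 (0.88), Ndufa13 (0.80) and Ndufb7 (0.64) also rose, as did Ndufs4 (1.00) and the core subunit Ndufs3 (0.85). The lowest complex I ratio was -0.29, for Ndufa4, which is now placed in complex IV.

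In complex II, Sdhd, a membrane anchor, rose (1.31 ± 0.31, limma adjusted p = 0.00215), whereas the other anchor Sdhc had a ratio of 0.00 and the iron-sulfur subunit Sdhb one of 0.32, neither called. The complex II assembly factors Sdhaf3 (0.88) and Sdhaf1 (0.65) and the complex I assembly factors Ndufaf1 (0.78) and Ndufaf2 (0.60) rose as well. Of 16 ATP synthase genes 4 rose, namely Atp5a1 (the alpha subunit of F1, 1.51), Atp5e (epsilon subunit, 1.21), Atp5md (0.97) and Atp5h (0.69), and Atp5c1, the gamma subunit of the central stalk, fell. Atp5c1 had 10.99, 11.13 and 10.92 in MTs and 11.79, 11.68 and 11.74 in MBs (log2 -0.72 ± 0.09, limma adjusted p = 4.32e-06).

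Complex III was the complex with the fewest calls. None of its 7 tested genes was called in limma's test, although 1 was higher and 2 were lower at an unadjusted p under 0.05, and its median ratio was -0.02, with a range of -0.40 (Uqcrq) to 0.30 (Uqcrh). Per array, the mean centred level of the 7 genes, with Uqcrfs1 near background among them, was -0.09 ± 0.20 in MTs and -0.07 ± 0.15 in MBs (SD, n = 3 each). The same measure for complex IV was 0.11 ± 0.41 in MTs and -1.04 ± 0.05 in MBs, and without Cox6a2, Cox7a1 and Cox8b it was 0.01 ± 0.31 in MTs and -0.26 ± 0.08 in MBs. For complex I it was 0.04 ± 0.24 in MTs and -0.36 ± 0.12 in MBs, and for ATP synthase -0.03 ± 0.24 in MTs and -0.34 ± 0.16 in MBs. MT replicate 1 was the highest and MT replicate 3 the lowest MT array for complexes I, III and IV and for ATP synthase. Without MT replicate 3, 34 genes rose and 2 fell in myogenesis, where 12.2% of all genes rose and 13.6% fell.

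**Figure D2:**
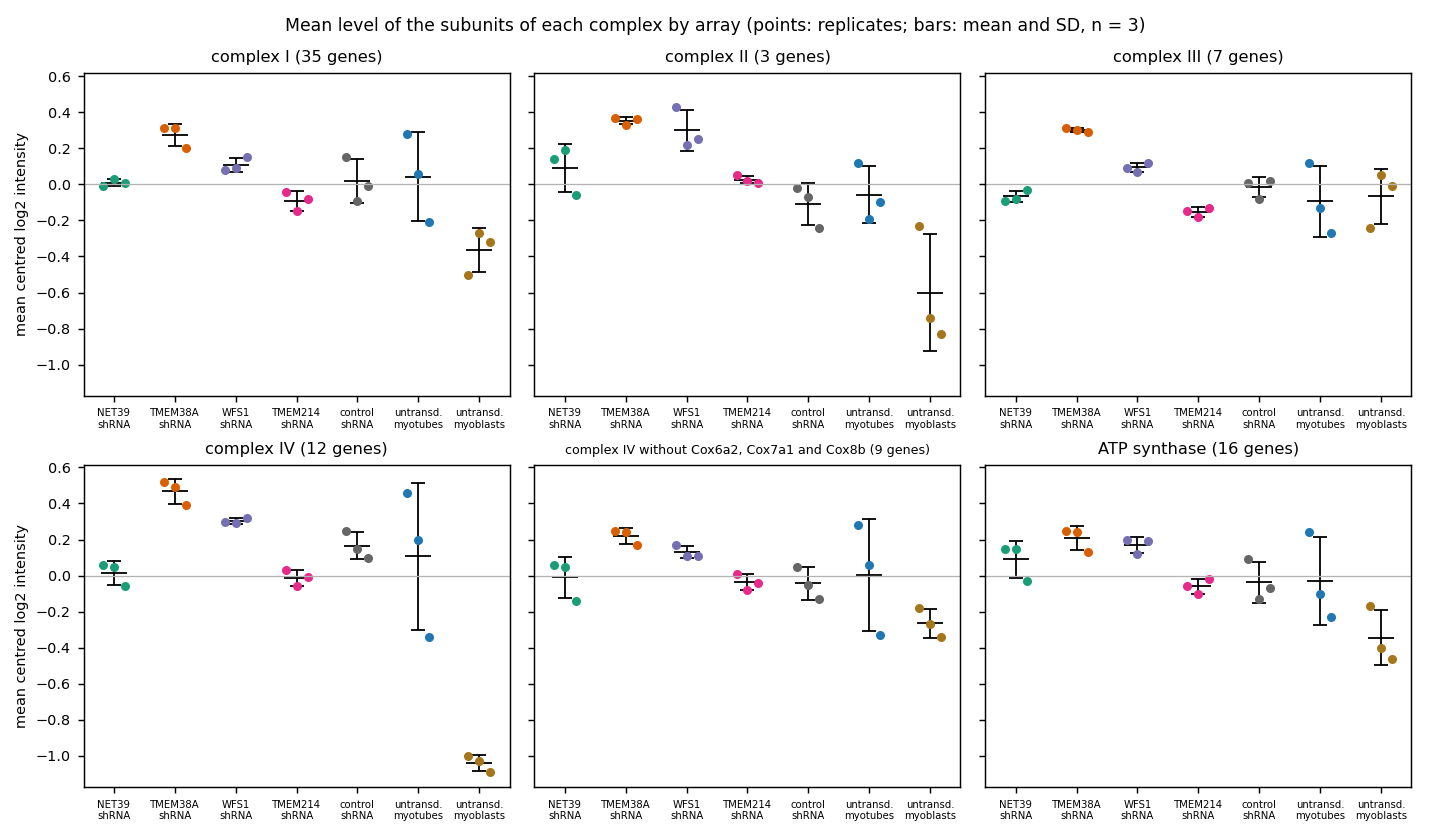
Mean centred log2 intensity (y axis; each gene minus its mean over the 21 arrays, averaged over the tested genes of a complex) on each array of the 7 groups (x axis; points are arrays, bars are mean and SD, n = 3). Complex III has similar means in untransduced myotubes (-0.09) and myoblasts (-0.07, arrays at -0.24, 0.05 and -0.01), and includes Uqcrfs1, which lay near background. Complex IV shows the widest gap (0.11 and -1.04), and TMEM38A knockdown myotubes sit highest of the shRNA groups in each complex.

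These myogenesis values depend on array scaling. When scanner values were background-corrected and only the array medians were matched, 4 genes rose (Cox6a2, Cox8b, Cox7a1 and Ndufb9) and 15 fell, in place of 22 and 2, and 6 of the 24 calls were made again. The percentages over all genes were then 4.86% and 22.6%. The log2 ratio of Cox6a2 was 5.64 and that of Cox6a1 was -1.28 under that scaling, so the isoform contrast kept its direction, while 18 of the 22 rises were not called.

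A set of genes was uneven within the MBs. On MB replicate 1, 9 genes lay over 1 log2 unit above the mean of MB replicates 2 and 3: Atp5a1 (2.98), Cox6c (2.19), Ndufb9 (1.82), Sdhd (1.53), Ndufb5 (1.40), Atp5md (1.24), Cox7a2 (1.10), Cox7b (1.03) and Ndufb4 (1.01). Atp5a1 had 10.65, 9.92 and 10.01 in MTs, against 10.67, 7.76 and 7.62 in MBs. Cox6c, a small complex IV subunit, had 11.78, 11.78 and 10.77 in MTs and 11.95, 9.78 and 9.73 in MBs. For both genes MB replicate 1 reached the MT range and the other 2 MB arrays lay far below it. Ndufv3 (-1.26), Cox6b1 (-0.97) and Ndufab1 (-0.93) deviated the other way.

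Without MB replicate 1, 25 genes rose and 5 fell. The background was then 12.9% rising and 14.3% falling. Of the 24 calls, 23 were made again in the same direction, 1 was lost (Ndufb7, log2 0.42) and 7 were added. The added rises were Cox6c (1.69 ± 0.22), Cox7b (0.97), Cox7a2 (0.84) and Ndufa1 (0.65), and the added falls were Uqcrq (-0.59), Ndufab1 (-0.55) and the complex III core protein gene Uqcrc1 (-0.52). Without that array, complex III thus had 2 falls and complex IV had 6 rises and 1 fall among 12. The ratio of Atp5a1 moved to 2.51 ± 0.23, over 1.5 times its value with all arrays. The ratio of Cox6a2 moved only to 5.82.

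**Figure D3:**
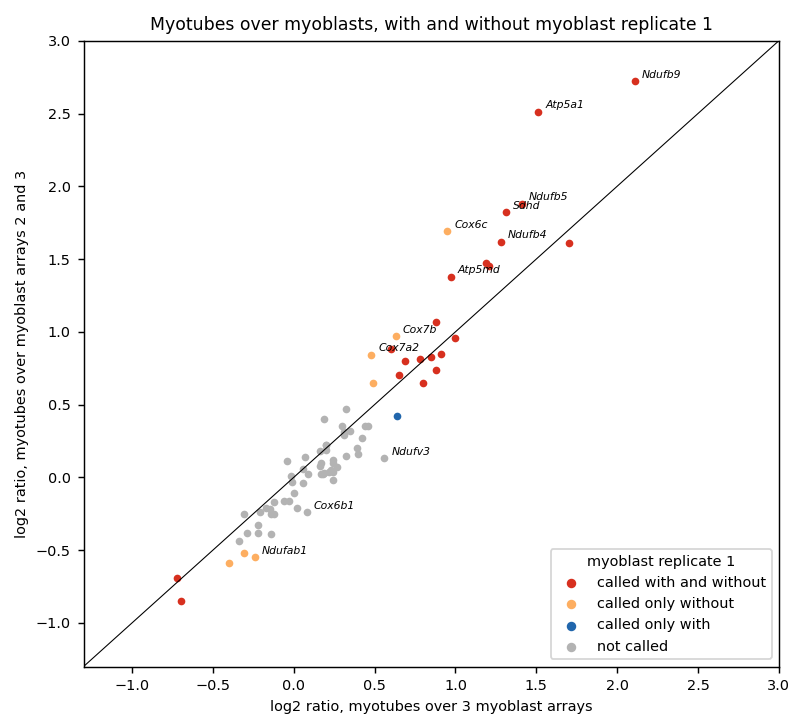
Log2 ratio of untransduced myotubes over all 3 myoblast arrays (x axis) and over myoblast arrays 2 and 3 (y axis) for the tested genes, with Cox6a2 and Cox8b beyond the axes left out. Genes above the diagonal, such as Atp5a1 (1.51 and 2.51) and Cox6c (0.95 and 1.69), gained in ratio without myoblast replicate 1, and colours show in which of the 2 fits a gene was called.

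Several of these genes were uneven in a second group. In NET39 MTs, replicate 3 lay below the mean of replicates 1 and 2 for Ndufb4 (-1.32), Atp5md (-1.27), Atp5a1 (-0.94), Cox7b (-0.91) and Sdhd (-0.87), while Cox7a2 (-0.28) and Cox6c (-0.19) lay close to the other arrays. All 9 genes that MB replicate 1 placed over 1 log2 unit high were lower on NET39 replicate 3, against 35 of the 84 genes in all. Across the 84 genes, which are not independent, the deviation of NET39 replicate 3 and that of MB replicate 1 had a Pearson r of -0.69 and a Spearman rho of -0.49, and over all 13548 genes r was -0.48. The mitochondrially encoded subunit ATP6, chosen after its values were seen, had 12.66, 12.33 and 12.84 in MTs and 12.17, 9.90 and 9.61 in MBs, the same split of the MB arrays.

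Different probes of a gene did not always move together. Of 31 genes with more than 1 kept probe, 4 were called in the same direction by every probe in myogenesis and 9 by only some, and no gene had calls in both directions. The 4 probes of Ndufs4 gave 1.00, 1.42, 1.45 and 1.82. The brightest Ndufa5 probe gave -0.17 and the second 1.07, and the brightest Atp5a1 probe gave 1.51 and the second, a dim one, -0.17. Ndufb8 gave 0.17 and -0.55. The second probes of Ndufa5 and of Ndufs4 read higher on MB replicate 1 by 1.70 and 0.96, whereas the brightest probes read -0.11 for both genes.

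The second comparison sets control shRNA MTs against untransduced MTs, which differ by transduction and selection. Among the 84 genes 2 rose and 3 fell, and over all genes 4.35% rose and 4.22% fell. The share of the 84 that was called, 5.95% in both directions together, thus exceeded that background in neither direction. The gene that moved most was Cox6a1, with 10.78, 10.19 and 10.48 in control shRNA MTs, against 12.12, 11.73 and 11.36 in untransduced MTs (log2 -1.25 ± 0.17, limma adjusted p = 6.75e-05, with -0.93 from the second probe). Cox8b was higher, with 11.73, 11.42 and 11.57 in control shRNA MTs and 11.39, 10.62 and 9.59 in untransduced MTs (1.04 ± 0.28, limma adjusted p = 0.0113). The 2 groups of arrays did not overlap for either gene, which held for 15 of the 84 genes and 34.1% of all genes tested. Ndufaf2 (-0.57) and Ndufa9 (-0.53) were lower, and Ndufs5-ps, a pseudogene symbol whose probe may also read Ndufs5, was higher (0.53).

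With scanner values scaled to the median, the median ratio of all genes was 0.51 and that of the 84 genes 1.28, 72 of the 84 were called higher, against 48.4% of all genes, and Cox6a1 was at 0.10. The direction of Cox6a1, Ndufaf2 (0.74) and Ndufa9 (0.85) thus depended on the scaling, although Cox6a1 lay below the median of all genes under both. Leaving out untransduced MT replicate 1 gave 6 rises and 3 falls (4.64% and 4.76% of all genes). Leaving out control replicate 2 (3.64% and 3.41% of all genes) or 3 (4.24% and 3.81%) gave 3 calls. Ndufaf2 was lost without any 1 of 4 arrays (limma adjusted p 0.0549 to 0.116) and Ndufa9 fell short of the minimum log2 ratio without control replicate 2 or untransduced MT replicate 3. Without MB replicate 1, which enters only through the pooled spread, 3 rose and 5 fell (4.5% and 4.57% of all genes), the added genes being Cox6c (1.01), Ndufb5 (-0.68) and Ndufb9 (-0.60). Cox6a2 minus Cox6a1 was 1.32 higher in control shRNA than in untransduced MTs (exact permutation p = 0.10), and Cox7a1 minus Cox7a2 differed by -0.04 (exact permutation p = 1). Of 5 tested fibroblast markers Dcn (-1.69) and Pdgfrb (-0.56) were lower (summed level of the list 964 to 1120 in control shRNA MTs and 1770 to 1930 in untransduced MTs), as were Mymk (-1.01) and Mb (-0.58) of 9 myotube markers (62800 to 71500 and 80800 to 83300 in these groups). Their part in the result was not tested.

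In the KD comparisons each line was set against control shRNA MTs, so all 4 share the same 3 control arrays. TMEM38A, a trimeric cation channel of the sarcoplasmic reticulum and nuclear envelope, gave the most uniform pattern. In TMEM38A MTs 8 of the 84 genes rose. Over all genes 2.94% rose and 4.13% fell. No gene of the 84 was called lower in limma's test, nor lower at an unadjusted p under 0.05, and 33 were higher at that level. The median ratio was 0.22 over the 84 genes and 0.00 over all genes, and 74 of the 84 ratios were positive.

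Cox7a1 had 9.98, 9.92 and 9.64 in TMEM38A MTs, against 8.63, 8.62 and 8.82 in control shRNA MTs, a log2 ratio of 1.16 ± 0.26 (limma adjusted p = 0.00353). Uqcrc1 had 11.49, 11.52 and 11.68 in TMEM38A MTs and 10.64, 10.94 and 10.90 in control shRNA MTs (0.74 ± 0.14, limma adjusted p = 0.000807). Neither gene overlapped between the groups, which held for 41 of the 84 genes and 39.9% of all genes tested. Ndufb7 (0.75), Ndufa4 (0.63), the complex I subunit Ndufa10 (0.60), Uqcrq (0.58, a small complex III subunit), Cox6a1 (0.56) and the assembly factor Ndufaf4 (0.52) also rose. The muscle isoforms Cox6a2 and Cox8b, at 0.13 and -0.09, were not called. Per array, the mean centred level of complex III was 0.30 ± 0.01 in TMEM38A MTs and -0.02 ± 0.05 in control shRNA MTs, and that of complex I was 0.27 ± 0.06 and 0.02 ± 0.12 in these groups (SD, n = 3 each).

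Under median scaling none of the 84 genes was called in TMEM38A MTs, against 1.12% of all genes called higher and 13% lower, where the median ratio of all genes was -0.14 and that of the 84 was -0.04. Cox7a1 then had a ratio of 0.90 (limma adjusted p = 0.0513). Of the 8 calls, Cox6a1 was lost when any of 5 arrays was left out (adjusted p 0.0648 to 0.171), all but control replicate 1. Ndufa10 and Ndufaf4 were lost without control replicate 3 or TMEM38A replicate 1. Either omission left 5 calls, where 2.66% and 2.78% of all genes rose. Without MB replicate 1 there were 11 rises (3.15% of all genes), with Sdhd (0.76), Ndufb5 (0.64) and Atp5a1 (0.59) added. In TMEM38A MTs 3 of 5 tested fibroblast markers fell (summed level of the list 649 to 693, against 964 to 1120 in control shRNA MTs), and of 9 myotube markers 2 rose and 2 fell (76700 to 80800, against 62800 to 71500 in control shRNA MTs). Myh6, a heart myosin gene and the 1 heart marker tested, rose by 2.22 there. Their part in the result was not tested.

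**Figure D4:**
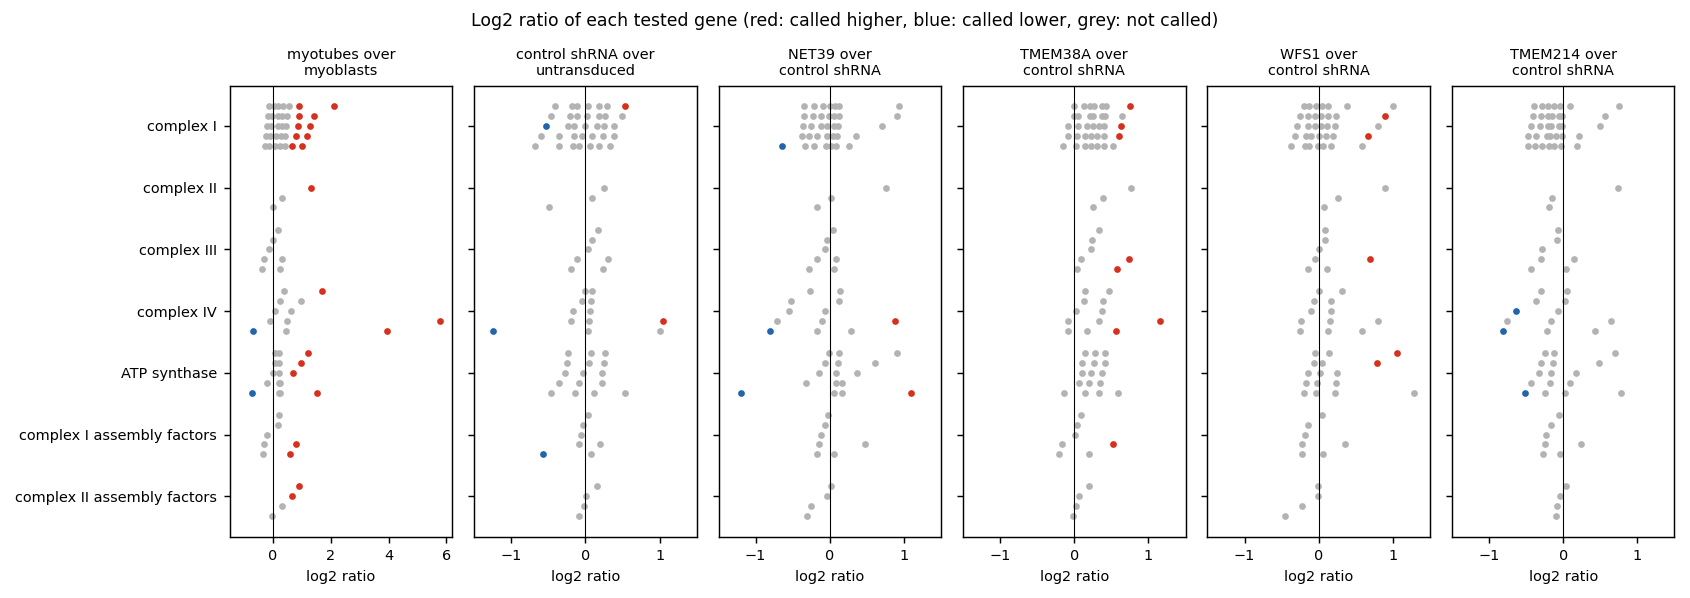
Log2 ratio (x axis) of each tested gene, grouped by complex or assembly factors (rows), in the 6 comparisons (panels; the first has a wider axis). Red points were called higher, blue points lower and grey points were not called; in TMEM38A knockdown 74 of 84 points lie right of 0, and in TMEM214 knockdown 21 of 84 do.

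TMEM214 KD had the opposite bias. In TMEM214 MTs 3 of the 84 genes fell. Over all genes 3.83% rose and 3.09% fell, so the share of the 84 that fell, 3.57%, was near that background. No gene was called higher in limma's test, although 5 were higher and 23 lower at an unadjusted p under 0.05. The median ratio was -0.15, against -0.01 over all genes, and 21 of the 84 ratios were positive. Cox7a1 had 7.89, 7.81 and 7.92 in TMEM214 MTs, against 8.63, 8.62 and 8.82 in control shRNA MTs (-0.81 ± 0.26, limma adjusted p = 0.0374). Cox6a2 had 11.82, 11.82 and 11.65 in TMEM214 MTs, against 12.46, 12.40 and 12.31 in control shRNA MTs (-0.63 ± 0.14, limma adjusted p = 0.00452). The third gene that fell was Atp5j2, which encodes a small membrane subunit of ATP synthase (-0.51). Groups overlapped for none of the 3, and 42 of the 84 genes and 41.5% of all genes tested were also free of overlap.

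The calls of Cox7a1 and Atp5j2 in TMEM214 MTs rested on the full set of arrays. Cox7a1 was lost without any 1 of the 6 arrays compared (adjusted p 0.0716 to 0.122), with its ratio between -0.85 and -0.75. Atp5j2 was lost without control replicate 1 or 3 or TMEM214 replicate 1 or 2. Omission of TMEM214 replicate 1 (3.42% of all genes rising and 2.96% falling) or 2 (3.41% and 2.92%) left 1 call. Under median scaling none was called, against 4.96% of all genes higher and 2.35% lower. Without MB replicate 1, Atp5a1 (0.78), Sdhd (0.74) and Ndufb5 (0.57) were called higher beside the 3 falls (4.61% and 3.12% of all genes). Markers of other cells moved here too: of the dividing myoblast markers 4 of 8 rose (summed level 1400 to 1450 in TMEM214 MTs and 1070 to 1100 in control shRNA MTs), of 5 tested fibroblast markers 3 rose (2810 to 2910 and 964 to 1120 in these groups), and of 9 myotube markers 4 fell (53100 to 54900 and 62800 to 71500 in these groups). Their part in the result was not tested.

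NET39, a lipid phosphatase-like protein of the nuclear envelope in muscle, gave rises and falls. In NET39 MTs 2 of the 84 genes rose and 3 fell. Over all genes 3.55% rose and 3.11% fell. The share of the 84 that was called, 5.95% in both directions together, was thus near that background. Atp5mpl, which encodes a small proteolipid associated with ATP synthase, had 11.51, 11.30 and 11.44 in NET39 MTs, against 12.76, 12.50 and 12.60 in control shRNA MTs (-1.20 ± 0.23, limma adjusted p = 0.00125). A second, dim probe of the gene gave -0.11. Cox6a2 had 11.46, 11.68 and 11.60 in NET39 MTs, against 12.46, 12.40 and 12.31 in control shRNA MTs (-0.81 ± 0.14, limma adjusted p = 0.000581). Ndufa11, a membrane-arm subunit of complex I, was lower (-0.64). All 3 falls were free of overlap between the groups, as were 27 of the 84 genes and 39% of all genes tested. Cox8b (10.84, 10.83 and 10.92 in NET39 MTs, against 11.73, 11.42 and 11.57 in control shRNA MTs) and Cox7a1 (-0.55 ± 0.26) were lower in value but not called.

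The 2 rises in NET39 MTs, Atp5md (1.09) and Cox7b (0.88), belonged to the genes that were uneven between arrays. Atp5md had 9.21, 9.15 and 7.91 in NET39 MTs, against 7.91, 7.64 and 7.46 in control shRNA MTs, so that NET39 replicate 3 met the highest control array. Cox7b was lost without any 1 of 5 arrays (adjusted p 0.0761 to 0.192), all but NET39 replicate 3. Leaving out NET39 replicate 1 or 2, or control replicate 2 or 3, left the 3 falls alone. Over all genes 2.78% to 3.03% then rose and 2.64% to 3% fell. Without control replicate 1 there were 2 falls (3.4% of all genes), Ndufa11 being lost (limma adjusted p = 0.0577). Without NET39 replicate 3 there were 5 rises and 3 falls (3.77% and 3.14% of all genes). With the replicate number as a block there were 6 rises and 3 falls (3.77% and 3.15% of all genes), and without MB replicate 1 there were 8 rises and 4 falls (4.31% and 3.21% of all genes). The 6 rises added without MB replicate 1 were Ndufb9 (0.91), Atp5a1 (0.90), Ndufb4 (0.93), Sdhd (0.76), Ndufb5 (0.70) and Atp5e (0.61). Under median scaling 1 gene rose and 1 fell, the fall being Cox6a2 (-0.77), against 4.66% and 2.34% of all genes.

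In NET39 MTs, 6 of 8 dividing myoblast markers rose (summed level 1870 to 2020, against 1070 to 1100 in control shRNA MTs and 11300 to 13700 in MBs). Of 5 tested fibroblast markers 3 rose (3240 to 4580 in NET39 MTs and 964 to 1120 in control shRNA MTs), and of 9 myotube markers 2 fell (61400 to 63500 and 62800 to 71500 in these groups). The part of these markers in the lower Cox6a2 was not tested.

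In WFS1 MTs 5 of the 84 genes rose. Over all genes 3.16% rose and 2.97% fell. No gene was called lower in limma's test, but 8 were lower and 17 higher at an unadjusted p under 0.05, and the median ratio was 0.03. Ndufb10 had 10.32, 10.28 and 10.38 in WFS1 MTs, against 9.71, 9.68 and 9.58 in control shRNA MTs (0.67 ± 0.07, limma adjusted p = 4.31e-06). Uqcrq had 8.17, 8.40 and 8.34 in WFS1 MTs, against 7.58, 7.64 and 7.64 in control shRNA MTs (0.69 ± 0.12, limma adjusted p = 0.000437). Neither lost its call when any of the 6 arrays was left out. A second Uqcrq probe, near background, gave 0.06. The other 3 were Atp5md (1.06), Ndufb5 (0.90) and Atp5e (0.79), of which Atp5md and Ndufb5 were among the 9 genes uneven in MBs, and Atp5e lay 0.71 above the other arrays on MB replicate 1. Atp5md was lost without any 1 of the 6 arrays (adjusted p 0.0612 to 0.147), and Ndufb5 and Atp5e without any 1 of 5 of them (0.0655 to 0.128 and 0.05 to 0.113), all but control replicate 1. Leaving out control replicate 2 or 3 or any WFS1 array left 2 calls. Over all genes 2.69% to 2.98% then rose and 2.73% to 2.95% fell. Without MB replicate 1 there were 11 rises (3.88% of all genes), with Atp5a1 (1.28), Ndufb4 (1.00), Sdhd (0.90), Ndufb9 (0.80), Cox7b (0.80) and Ndufb2 (0.58) added. Under median scaling 1 gene rose, Uqcrq (0.51), and 3 fell, against 1.61% of all genes rising and 16% falling. In WFS1 MTs 1 of 5 tested fibroblast markers rose (summed level 1580 to 2190, against 964 to 1120 in control shRNA MTs) and the dividing myoblast markers summed to 992 to 1030, against 1070 to 1100 in control shRNA MTs. Myh6 rose by 1.16 there. Their part was not tested.

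The isoform differences moved in the KDs too. Cox7a1 minus Cox7a2 was higher by 1.01 in TMEM38A MTs than in control shRNA MTs, and lower by log2 differences of -0.67 in NET39 and -0.86 in TMEM214 MTs, with no overlap in any of the 3 (exact permutation p = 0.10 each). In WFS1 MTs it differed by 0.43 (exact permutation p = 0.20). Cox6a2 minus Cox6a1 was lower in all 4 lines, at -0.71 in NET39, -0.42 in TMEM38A, -0.41 in WFS1 and -1.06 in TMEM214 MTs, with exact permutation p = 0.10, except 0.20 for WFS1. The lines share their control arrays, where Cox6a2 averaged 12.39 and Cox6a1 10.49. In TMEM38A MTs Cox6a2 itself was not lower (12.53), and Cox6a1 was higher (11.04). Cox6a2 averaged 11.58 in NET39, 12.14 in WFS1 and 11.76 in TMEM214 MTs, and Cox6a1 10.38, 10.65 and 10.92. No p under 0.10 can be reached with these numbers of arrays.

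**Figure D5:**
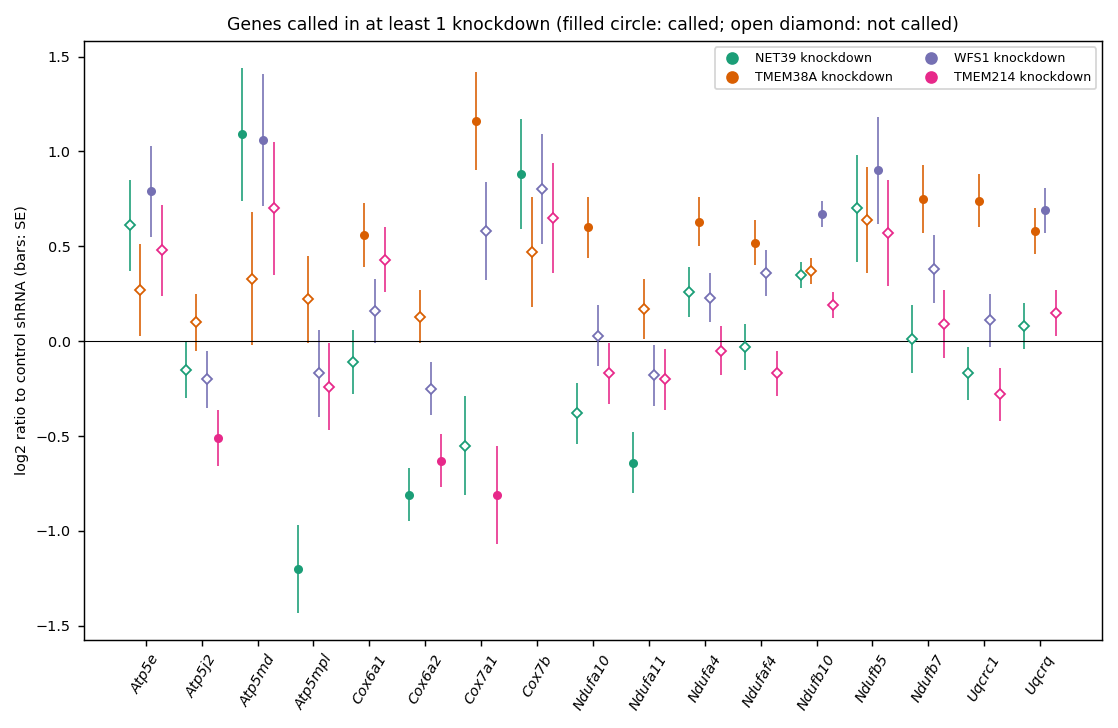
Log2 ratio to control shRNA myotubes (y axis; bars are SE from the limma fit) in the 4 knockdowns for the genes called in at least 1 of them (x axis). Filled circles were called and open diamonds were not; Cox7a1 spans the widest range, with 1.16 in TMEM38A and -0.81 in TMEM214 knockdown, and the ratios of a gene share their control arrays.

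The lines were also tested against each other. These log2 differences do not involve the control arrays, which enter the tests only through the pooled spread. Between NET39 and TMEM38A MTs 16 of the 84 genes were called, all lower in NET39 MTs, where the background over all genes was 12.6% in either direction. Between TMEM38A and TMEM214 MTs 20 were called, all higher in TMEM38A MTs, against a background of 11.7%. The other pairs had few calls: 4 for NET39 minus WFS1 (background 8.77%), 1 for NET39 minus TMEM214 (3.59%), 4 for TMEM38A minus WFS1 (9.14%) and 3 for WFS1 minus TMEM214 (7.43%). Over the 6 pairs this made 48 calls.

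Cox7a1 averaged 9.85 in TMEM38A MTs, 9.26 in WFS1 MTs, 8.14 in NET39 MTs and 7.88 in TMEM214 MTs. It differed by 1.97 ± 0.26 between TMEM38A and TMEM214 (limma adjusted p = 1.38e-05), by -1.71 between NET39 and TMEM38A, by 1.39 between WFS1 and TMEM214 and by -1.12 between NET39 and WFS1. Differences between TMEM38A and WFS1 and between NET39 and TMEM214 were not called. The other genes called between TMEM38A and TMEM214 came from every complex. They included Uqcrc1 (1.02), the ATP synthase stalk gene Atp5pb (0.84), Cox6a2 (0.76), the flavoprotein subunits Ndufv1 (0.70) and Ndufv2 (0.63), Sdhb (0.58) and the broadly expressed Cox4i1 (0.53). Cox4i1, Atp5pb, Ndufv1, Ndufv2 and Sdhb were not called in either line against control. Atp5mpl was lower in NET39 MTs than in each of the other 3 lines, by -1.43 against TMEM38A, -1.04 against WFS1 and -0.96 against TMEM214.

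Other genes of the pathway were read from lists outside the 91, against the shares of all genes given above for each comparison (11.7% rising and 13.2% falling in myogenesis, 2.94% and 4.13% in TMEM38A MTs). Of 20 tested nuclear regulators of mitochondrial genes, 3 fell in myogenesis, namely Nrf1 (-0.93), Pprc1 (-0.86) and Ppard (-0.67), a share of 15% and thus near that background. In TMEM38A MTs 3 rose, Ppargc1b (PGC-1 beta, a coactivator; 1.27 with limma adjusted p = 2.22e-05), Esrrb (0.92) and Esrra (ERR alpha, a nuclear receptor acting on these genes; 0.62). In WFS1 MTs Ppargc1b (0.99) and Esrra (0.73) rose, and in NET39 MTs Esrrb fell (-0.67).

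Of 34 assembly factors outside the symbol rule, 10 rose and 1 fell in myogenesis, led by Uqcc1, a complex III assembly factor (1.63), and with Cox10, which makes heme for complex IV, as the fall (-0.83). Of 16 electron carrier and coenzyme Q genes, 4 rose in myogenesis, Coq10a (1.64) with the largest ratio, and 6 rose in TMEM38A MTs, among them Cyc1, the cytochrome c1 subunit of complex III (0.73), Coq9 (0.72) and Coq5 (0.71). Coq10a fell in NET39 (-0.90) and TMEM214 MTs (-0.77). Of 16 genes of the tricarboxylic acid cycle, 4 rose and 2 fell in myogenesis, 3 rose in TMEM38A MTs, and in TMEM214 MTs 1 rose and 4 fell, including Ogdh (-0.85) and Pdha1 (-0.73). Among carriers and porins, Ckmt2, the sarcomeric mitochondrial creatine kinase, rose in TMEM38A MTs by 2.64 and in WFS1 MTs by 1.09, and Vdac1 fell in NET39 MTs (-0.90). Of 74 mitochondrial ribosome genes, 4 rose and 7 fell in myogenesis, 14.9% in all and fewer than the background in either direction, with a median ratio of -0.11, where that of the 84 chain genes was 0.24.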

How the data were processed

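RNA of 21 samples was measured on Illumina mouse beadchips. The authors deposited non-normalized scanner intensity values, with no detection p-values or control probes, and log2 values that they had quantile-normalized over all arrays in R. The deposited log2 values were used throughout, and the scanner values only as an alternative. Gene symbols came from the platform annotation, and 10378 probes without a symbol and 18 with several were set aside. The brightest probe stood for a gene, and genes above the background level on at least 3 arrays were tested. One limma model (version 3.58.1, R 4.3.3) was fitted over the 7 groups, with Benjamini-Hochberg adjustment over all genes in each comparison, and a call required an adjusted p under 0.05 and a log2 ratio over 0.5 in size. The fit was tested on simulated data. Replicates are the labels' replicate numbers. Per the study's methods the replicates were biological, and the number of arrays limits the precision. Same-numbered arrays deviated together in myogenesis (correlations 0.132 to 0.252), transduction (0.148 to 0.195) and NET39 KD (0.183 to 0.266), so the numbers were taken to pair these arrays. The correlations were mixed in sign in TMEM38A (-0.15 to 0.351), WFS1 (-0.0972 to 0.223) and TMEM214 KD (-0.0607 to 0.441). The numbers were therefore not taken to pair those arrays, although some same-numbered arrays did deviate together. The main fit and the exact permutation tests did not use this pairing, and the replicate number as a block was fitted only as an alternative.

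Genes named were the isoform pairs, the called genes with the largest ratios and no overlap between groups, the extremes of each complex, the shRNA targets, up to 3 called genes of each pathway list, and genes whose call changed without MB replicate 1. Other names were chosen after their values were seen. The genes and lists were chosen with earlier results of these data known. Alternatives covered background correction, scaling, filters, probes, array weights, the replicate block, the arrays fitted, single arrays left out and the call rule.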

Additional observations from a re-analysis of the deposited data

Results flagged for a closer look

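Differences between KD lines, each tested directly in the limma fit, are listed here because the lines' changes against control differed. Between NET39 and TMEM38A MTs 16 of 84 genes were called (19%, against 12.6% of all genes). Between TMEM38A and TMEM214 MTs 20 were (23.8%, against 11.7%). The counts were 4 for NET39 minus WFS1 (4.76%, against 8.77% of all genes) and 1 for NET39 minus TMEM214 (1.19%, against 3.59%). They were 4 for TMEM38A minus WFS1 (4.76%, against 9.14%) and 3 for WFS1 minus TMEM214 (3.57%, against 7.43%). In these pairs the share of the 84 genes was below that of all genes.

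For genes also called against control, NET39 minus TMEM38A was -1.43 for Atp5mpl, -0.97 for Ndufa10, -0.95 for Cox6a2, -0.80 for Ndufa11, -0.74 for Ndufb7 and -0.67 for Cox6a1 on the log2 scale. TMEM38A minus TMEM214 was 1.97 for Cox7a1, 1.02 for Uqcrc1, 0.68 for Ndufaf4, 0.67 for Ndufa4 and 0.60 for Atp5j2. NET39 minus WFS1 was -0.61 for Uqcrq.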

How the results depend on the processing

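The values below are counts of called genes among those tested. Most are given without the share of all genes called under the same setting. Such a count cannot be told apart from a shift in calls over all genes. Median scaling of scanner values gave 72 in transduction, 2 in NET39, 0 in TMEM38A, 0 in TMEM214 and 23 over the KD pairs, and turned Cox6a1 (0.10), Ndufaf2 (0.74) and Ndufa9 (0.85) upward in transduction. It moved the median of all genes by 0.51 in transduction. NET39 KD gave 3 with no filter, with the filter requiring all arrays and with the mean over probes. Array weights gave 9 in transduction, 14 in NET39, 12 in WFS1 and 10 in TMEM214. With only the groups compared, the counts were 3, 10, 12 and 11 in these comparisons, and with the moderated F-statistic 9, 14, 12 and 11. With no minimum log2 ratio there were 9 in transduction, 18 in TMEM38A, 10 in WFS1, 10 in TMEM214 and 107 over the pairs. Every kept probe, an alternative chosen after seeing the data, gave 9 in transduction and 8 in WFS1. The causes were not tested.

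With the replicate block NET39 KD gave 9 (3.77% of all genes rising and 3.15% falling) and WFS1 KD 8 (3.37% and 2.97%). The WFS1 arrays were not taken as paired, however, since their correlations were mixed in sign (-0.0972 to 0.223). The block moved no other count by over 1.5 times. Leaving out single arrays, MB replicate 1 included (added after seeing the data except in myogenesis), gave 21 to 36 in myogenesis, 3 to 9 in transduction, 2 to 12 in NET39, 5 to 11 in TMEM38A, 2 to 11 in WFS1, 1 to 6 in TMEM214 and 46 to 54 over the pairs. Of 562 values of 34 gene results under the alternatives, 476 kept direction and call, 83 kept direction only and 3 turned. These results were called genes with the largest ratios and no overlap between groups. Calls with overlap, such as Atp5md in NET39 MTs, were not among them, so the tally does not describe all calls. Of 81 isoform values whose difference had p = 0.10 in the exact permutation test, 0 changed sign, and of 81 others 11 did. The first count says little about stability. That p requires groups without overlap, and leaving out an array then cannot change the sign. The beadchip as a block was not run, since the files name no chip.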

Other observations

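The 8 mitochondrially encoded subunits with a probe, chosen after their values were seen, were read beside the nuclear genes. In untransduced MTs against MBs, 5 of 8 rose: ATP6 (2.05), ND4L (1.63), COX2 (1.54), ND1 (1.17) and ND4 (0.66), by limma log2 ratio. Over all genes 11.7% rose. Values of ND1 and COX2 overlapped between the groups. ND1 was at 12.79 to 13.42 in MTs and at 12.91 on MB replicate 1, and COX2 was at 11.47 to 12.26 in MTs. MB replicate 1 was at 12.17 for ATP6 and 12.17 for COX2, while the other MB arrays were at 9.90 and 9.61 for ATP6 and at 9.37 and 9.16 for COX2. In the KDs ND4L rose in NET39 MTs (1.64), with overlap between the groups.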
